A study of Mus musculus with 28 samples.

Results

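H3K9me3, histone H3 trimethylated at lysine 9, was compared between the control cells of 2 mouse tumor lines: MC38, a colon adenocarcinoma line, and B16, a melanoma line given as B16OVA in the labels. The comparison used 6 libraries, 3 per line, of the 12 H3K9me3 libraries and of the 24 libraries with a file. They were chosen by their labels, as every H3K9me3 library of control genotype. The control cells of both lines had been transduced with an empty pCRISPR-v2-puro vector and were grown in medium with puromycin, so both groups share the vector and the drug. The remaining H3K9me3 libraries came from the same lines with a guide against Setdb1 (Setdb1 KO), and each line and genotype also had 3 libraries for H3K9Ac, histone H3 acetylated at lysine 9. The study asked how both marks lie where exons join transposable elements. Each line stands for its tumor type by 1 line only. The labels number the replicates and do not say that each was its own culture. The spread behind every p-value is therefore that between libraries, which may be technical.

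H3K9me3 is written by the SUV39H enzymes and by SETDB1, and is read by heterochromatin protein HP1. It marks condensed, silent chromatin over repeats, transposable elements and clusters of receptor and zinc finger genes, and over genes of other cell lineages. H3K9Ac sits on the same lysine at active promoters and enhancers, so 1 histone tail cannot carry both. The deposited files list islands, stretches of a genome (build mm10) enriched for the mark, with the number of reads in each. A value of 0 here means that no island was called, not that no read was there. Values are island reads per 1000000 counted (RPM) in a gene region, which ran from gene start to gene end plus 2 kb on both sides.

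The sequences below are the promoters of 4 genes with H3K9me3 islands within 1 kb of their start in 1 line only. H3K9Ac islands lay within 1 kb of it in the other line only. The 2 marks need not cover the same bases, nor those printed. At Zfp941 H3K9me3 covered 378, 578 and 578 bases around the start in the B16 libraries, and H3K9Ac 1423, 1223 and 1023 in the MC38 libraries. The sequences are shown because the promoters of genes with H3K9me3 in 1 line only differed in CG dinucleotides. With H3K9me3 in all 3 MC38 libraries and none of B16, 31.9% of promoters held 5 or more CG. It was 58.5% for the reverse and 50.5% for all measured genes. P2ry1 and Pabpc4l, counted below, held more CG than most promoters of the MC38 group. Each sequence runs 5′ to 3′ from 250 bases before to 50 bases after the start in RefSeq (GRCm38.p6), with CG in capitals. P2ry1 (chr3:61002535-61002834, plus strand), a purinergic receptor gene, and Pabpc4l (chr3:46447892-46448191, minus strand), a poly(A)-binding protein gene, had H3K9me3 in MC38. Zfp941 (chr7:140822129-140822428, minus strand), a zinc finger gene, and Gatm (chr2:122611228-122611527, minus strand), which encodes the first enzyme of creatine synthesis, had it in B16.
P2ry1: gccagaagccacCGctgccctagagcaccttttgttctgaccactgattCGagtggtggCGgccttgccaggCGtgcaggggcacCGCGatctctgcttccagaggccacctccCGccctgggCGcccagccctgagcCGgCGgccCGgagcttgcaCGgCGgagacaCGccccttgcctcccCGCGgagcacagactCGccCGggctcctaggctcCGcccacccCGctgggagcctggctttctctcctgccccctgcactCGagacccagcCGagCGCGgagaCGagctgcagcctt
Pabpc4l: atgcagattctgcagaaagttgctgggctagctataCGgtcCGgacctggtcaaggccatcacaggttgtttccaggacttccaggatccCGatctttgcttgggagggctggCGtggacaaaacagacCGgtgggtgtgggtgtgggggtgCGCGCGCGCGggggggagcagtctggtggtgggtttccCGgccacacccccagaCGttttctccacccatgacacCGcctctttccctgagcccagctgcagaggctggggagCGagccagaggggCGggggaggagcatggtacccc
Zfp941: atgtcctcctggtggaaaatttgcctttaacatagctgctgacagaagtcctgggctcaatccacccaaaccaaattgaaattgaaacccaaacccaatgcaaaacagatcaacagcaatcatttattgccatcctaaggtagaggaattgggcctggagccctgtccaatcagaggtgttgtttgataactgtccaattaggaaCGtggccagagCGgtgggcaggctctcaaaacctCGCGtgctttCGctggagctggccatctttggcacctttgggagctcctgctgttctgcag
Gatm: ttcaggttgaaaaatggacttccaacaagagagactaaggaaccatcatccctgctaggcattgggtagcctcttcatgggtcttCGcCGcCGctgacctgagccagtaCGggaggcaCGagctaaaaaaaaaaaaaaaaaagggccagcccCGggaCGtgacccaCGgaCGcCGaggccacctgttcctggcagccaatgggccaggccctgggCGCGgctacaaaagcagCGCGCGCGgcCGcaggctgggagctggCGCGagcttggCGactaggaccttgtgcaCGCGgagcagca
CG was searched as these 2 letters, which read the same on both strands. P2ry1 held 25 CG and Gatm 22, Pabpc4l 15 and Zfp941 5. Among the 26794 promoters listed, 94.4% held a CG, with a median of 7, and 35.5% held 15 or more. Among the 14090 promoters of measured genes, 92.0% held a CG, with a median of 5, and 23.1% held 15 or more. Zfp941 is thus at the median of the measured genes.

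At P2ry1 the H3K9me3 level was 69.6, 64.4 and 85.4 RPM in the 3 MC38 libraries, with no island in B16 (edgeR quasi-likelihood test, adjusted p = 0.00329). H3K9Ac over the gene was 6.50, 4.67 and 4.38 RPM in B16, with no island in MC38 (adjusted p = 0.00222). Pabpc4l had 75.1, 11.2 and 76.5 RPM of H3K9me3 in MC38 and none in B16 (adjusted p = 0.0116), and its H3K9Ac was 4.98, 3.83 and 3.55 RPM in B16 and none in MC38 (adjusted p = 0.00407). Its second MC38 library was far below the other two. Gatm was the reverse, with 26.1, 78.0 and 37.8 RPM of H3K9me3 in B16 alone (adjusted p = 0.00651) and 30.8, 37.2 and 33.5 RPM of H3K9Ac in MC38 alone (adjusted p = 6.07e-05). Zfp941 had 41.2, 55.0 and 27.4 RPM of H3K9me3 in B16 alone (adjusted p = 0.00628). Its H3K9Ac was 26.1, 25.6 and 27.2 RPM in MC38 against 0, 0 and 6.53 RPM in B16, a difference that missed the threshold (adjusted p = 0.250).

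The 6 libraries held 15198930 to 25468675 island reads on chromosomes 1 to 19 and X. Islands covered 325.4, 325.5 and 284.9 Mb in B16 and 344.6, 344.1 and 451.7 Mb in MC38. Every MC38 library was above every B16 library, and the third MC38 library stood well above the rest. The means were 311.9 ± 23.4 and 380.1 ± 61.99 Mb (SD, n = 3 each; exact two-sided permutation p = 0.1, the smallest that 3 against 3 libraries allow). Reads per kb of island were 58.3 ± 11.6 in B16 and 52.1 ± 3.83 in MC38 (exact permutation p = 0.6). As a check on identity, H3K9Ac was read over genes that define each lineage. Of 20 melanocyte genes 17 had higher H3K9Ac in B16 and 0 in MC38 (18 and 0 at an unadjusted p under 0.05), against 9.59% and 9.8% of the 33363 gene regions measured for H3K9Ac. Tyr, the key enzyme of melanin synthesis, had 162, 206 and 158 RPM in B16 and no island in MC38 (edgeR adjusted p = 3.57e-05), and 6 of the 19 measured had no MC38 island at all. Summed over the list, H3K9Ac was 2298 to 3454 RPM in B16 and 557 to 643 RPM in MC38. Of 28 gut epithelium genes Krt8 and Sis had higher H3K9Ac in MC38 and Lgr5 in B16. The summed levels of that list overlapped, at 313 to 452 RPM in B16 and 376 to 451 RPM in MC38. Cdx2, which directs intestinal identity, had 8.41 ± 2.17 RPM in MC38 and 8.09 ± 1.43 RPM in B16 (adjusted p = 0.970). The melanocyte markers thus set B16 apart, while the gut epithelium markers did not set MC38 apart. Of 15 leukocyte genes edgeR called 0 for H3K9Ac (0 at an unadjusted p under 0.05), and of 18 fibroblast genes 4 were higher in MC38 and 2 in B16.

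The lines differed by chromosome. In MC38, H3K9me3 islands covered 38.3 to 46.1% of chromosome 3 and in B16 13.8 to 16.8%, a ratio of means of 2.74. The ratio was 2.93 on chromosome 13 (means of 21.7% in MC38 and 7.40% in B16), 4.85 on chromosome 14 (10.7% and 2.21%), 2.61 on chromosome 18, 1.98 on chromosome 8 and 1.94 on chromosome 19. B16 was ahead on chromosome 6 (30.3% against 21.5%), chromosome 1 (18.5% against 11.4%), chromosome 15 (15.8% against 9.43%), chromosome 11 (14.8% against 10.5%) and chromosome 12 (21.8% against 17.8%). On the X chromosome 0.644% was covered in B16 and 0.208% in MC38, or 1.101 ± 0.172 and 0.355 ± 0.0505 Mb. The libraries of the lines did not overlap on 16 of 20 chromosomes, 9 of them higher in MC38 and 7 in B16. They overlapped on chromosomes 4, 7, 16 and 17.

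H3K9Ac islands, called in other libraries, were unequal on the same chromosomes. The MC38 to B16 ratio of H3K9Ac cover was 1.45 on chromosome 3, 1.69 on chromosome 13, 1.79 on chromosome 14 and 0.78 on chromosome 6. Across the 20 chromosomes, which share libraries, the log ratios of the 2 marks had a Pearson correlation of 0.88 and a Spearman correlation of 0.92, given as a description. On 18 of 20 chromosomes both ratios lay on the same side of 1. The 8 chromosomes apart in both marks were apart in the same direction. Copy number was not measured, so a difference in chromosome copies and a difference in H3K9me3 cannot be told apart. The shares of lists and families in 1 line only are therefore given, where printed, beside those of all measured genes of the same chromosomes.

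**Figure D1:**
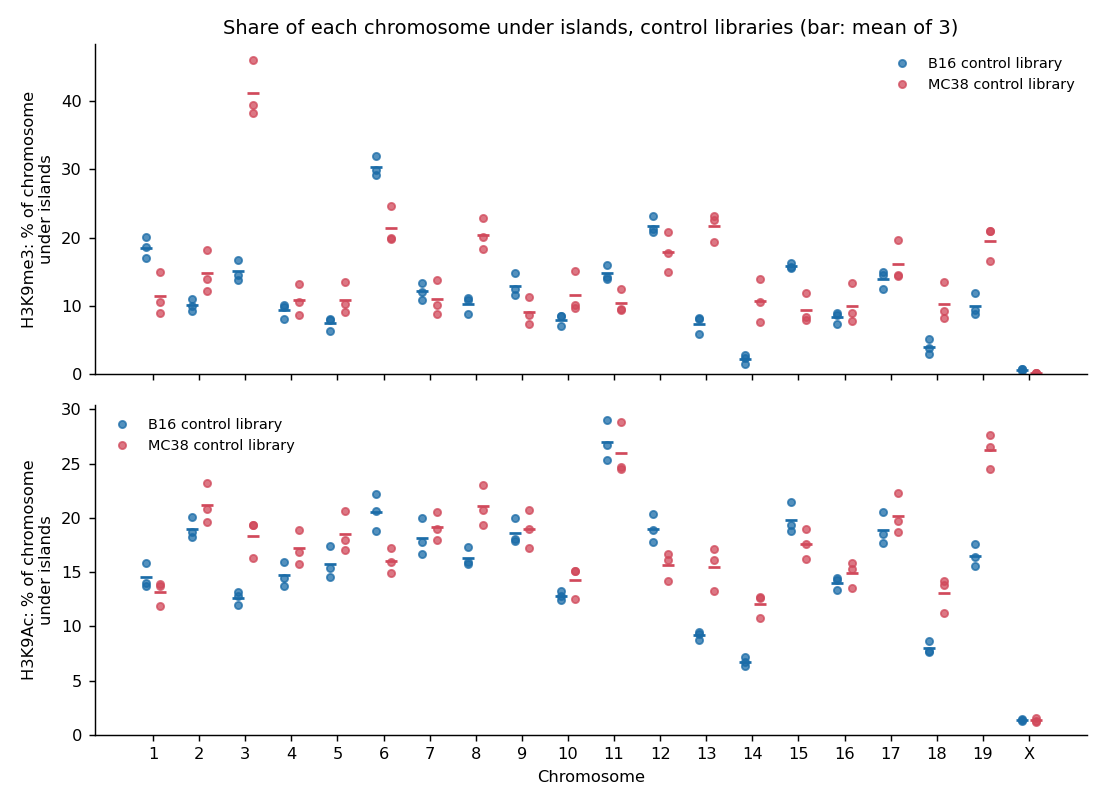
The vertical axes give the percentage of each chromosome under H3K9me3 islands (top) and H3K9Ac islands (bottom), the horizontal axis the chromosome. Points are the 3 control libraries of a line and bars their mean. Chromosome 3 stands out, at 13.8 to 16.8% in B16 and 38.3 to 46.1% in MC38 for H3K9me3.

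In 5 kb windows, 23792 of the 260103 with an island (9.15%) lay under islands in all 3 MC38 libraries and in none of B16, and 16947 (6.52%) the reverse, with a least cover of 500 bp where present. These windows make up 119 Mb and 84.7 Mb. Chromosome 3 held 6390 of the MC38 windows (27.9% of its windows with an island) and chromosome 6 held 3075 of the B16 windows (15.0%). The larger number in MC38 went with its greater total island length. With the islands of each library trimmed to 1 common length, 13633 windows were in MC38 only and 14550 in B16 only, so the direction of that excess turned. By edgeR 18996 of 269906 windows were called (7.04%), 11426 higher in MC38 (4.23%) and 7570 higher in B16 (2.80%), and 10999 and 7346 of the one-line windows were among them.

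Joined end to end, the MC38 windows formed runs of up to 185 kb and the B16 windows runs of up to 110 kb. MC38 had 1454 runs of 20 kb or more and B16 had 574. The runs came from untrimmed islands, which covered more in MC38, and were not formed again from trimmed islands. The longest MC38 run lay on chromosome 4 (90685001 to 90870000) in a stretch with no protein-coding gene. The next 4 overlapped protein-coding genes. They were Mdga2, a brain adhesion protein (chromosome 12, 66525001 to 66705000, 180 kb), Ndst4, a heparan sulfate sulfotransferase (chromosome 3, 125455001 to 125625000, 170 kb), Negr1, an adhesion protein of neurons (chromosome 3, 156900001 to 157055000, 155 kb), and Lrrc7, a synaptic scaffold (chromosome 3, 158410001 to 158565000, 155 kb).

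Over the whole gene Mdga2 had 689, 479 and 579.7 RPM in B16 and 6333, 3936 and 5502 RPM in MC38, a log2 difference of 3.17 (SE 0.39, edgeR adjusted p = 0.00235). Ndst4 had 34.3, 0 and 12.2 RPM in B16 and 2469, 1625 and 2519 RPM in MC38 (adjusted p = 0.0449). In both genes every MC38 library was far above every B16 library. Their H3K9Ac was the other way, at 88.0 ± 28.6 RPM in B16 and 1.72 ± 1.53 RPM in MC38 for Mdga2 (adjusted p = 0.0103) and 36.9 ± 14.2 and 7.04 ± 2.14 RPM for Ndst4 (adjusted p = 0.0494). The other two did not share this. Lrrc7 was higher in MC38 for H3K9me3 (adjusted p = 0.00538), and its H3K9Ac was 39.5 ± 13.04 RPM in B16 and 82.7 ± 34.8 RPM in MC38 (adjusted p = 0.0739). Negr1 missed the threshold in edgeR for H3K9me3 (adjusted p = 0.101) and for H3K9Ac, at 37.5 ± 9.51 and 17.1 ± 12.6 RPM (adjusted p = 0.276).

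The longest B16 runs lay on chromosome 6. One of 110 kb (41060001 to 41170000) covered variable segments of the T cell receptor beta locus. Another of 110 kb (41880001 to 41990000) held Sval1 and Sval3, and a run of 105 kb (42020001 to 42125000) held Sva, all of the seminal vesicle antigen family. Sva had 54.8, 53.7 and 56.6 RPM in B16 and no island in MC38 (adjusted p = 0.00501). On chromosome 11 a run of 90 kb (83640001 to 83730000) held the chemokine genes Ccl3 and Ccl4 and the protease inhibitor genes Wfdc17 and Wfdc18. Ccl4 had 128, 123 and 125 RPM and Ccl3 37.5, 35.4 and 34.9 RPM in B16, with no MC38 island (adjusted p = 0.00235 and 0.00765).

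Of 49554 gene regions on these chromosomes 25677 held enough island reads to be measured. Of these 1372 (5.34%) had H3K9me3 in all 3 MC38 libraries and in no B16 library, and 2549 (9.93%) the reverse, while 4568 had it in all 6. The MC38 genes were shorter, with a median of 6.85 kb for protein-coding genes against 26.6 kb for the B16 genes and 25.4 kb for all measured, and 29.5% of them were protein-coding against 44.2% and 40.005%. By edgeR 1832 genes were called (7.13%), 725 higher in MC38 (2.82%) and 1107 higher in B16 (4.31%). DESeq2 called 3507 higher in MC38 and 3281 in B16, and edgeR with the replicate number as a block 238 and 163, so the direction of the excess turned in both. Without the second B16 library edgeR called 1187 genes. Among the 1832 were 546 of the MC38-only genes (39.8%), 1046 of the B16-only genes (41.0%) and 220 of those with islands in all 6. The fit draws its spread from the Setdb1 KO libraries too. Of the called MC38-only genes 69.2% had the same pattern in all 6 KO libraries, against 2.18% of those not called, so whether a one-line gene was called went with its KO libraries. Genes with separated control libraries numbered 3486 (13.6%) for MC38 and 5325 (20.7%) for B16.

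One-line genes, those with H3K9me3 in all 3 libraries of 1 line and none of the other, were spread unevenly over the chromosomes. Chromosome 3 held 229 MC38-only genes (13.98% of its measured genes) and chromosomes 19 and 13 held 105 (15.15%) and 144 (12.05%). B16-only genes made up 19.35% of chromosome 11 and 18.7% of chromosome 6, where they numbered 279 and 404. With islands trimmed to 1 length within each chromosome (chosen once the data had been seen) 896 MC38-only and 2195 B16-only genes were counted, of which 568 and 1757 were the same genes as before. On chromosome 3 the trimmed islands left 32 MC38-only and 178 B16-only genes of 1638, the reverse of the order without trimming.

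The 10 genes named by smallest p for MC38 lay on chromosomes 2, 3, 6, 13 and 19. Adcy2, an adenylyl cyclase of brain (chromosome 13, 68620043 to 68999600), had 129.7, 72.4 and 48.7 RPM in B16 and 3139.9, 2348 and 2935 RPM in MC38, a log2 difference of 5.07 (SE 0.44, edgeR adjusted p = 0.00168). Every MC38 library was far above every B16 library. Its H3K9Ac was 27.9 ± 3.45 RPM in B16, with no island in MC38 (adjusted p = 0.000104). Nlgn1, a postsynaptic adhesion protein (chromosome 3, 25421808 to 26332866), had 144, 108 and 126 RPM in B16 and 4856, 2538 and 5066 RPM in MC38 (log2 5.04, SE 0.46, adjusted p = 0.00168). Its H3K9Ac was 79.8 ± 29.3 RPM in B16 and 1.30 ± 2.25 RPM in MC38 (adjusted p = 0.0407).

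Sorcs3, a sorting receptor of neurons (chromosome 19), had 476 ± 113 RPM in B16 and 2974 ± 424 RPM in MC38 (log2 2.64, SE 0.29, adjusted p = 0.00187). Prickle2, a planar polarity protein (chromosome 6, where B16 had the wider cover), had 55.6 ± 13.5 RPM in B16 and 617 ± 156 RPM in MC38 (log2 3.47, SE 0.39, adjusted p = 0.00191). Its H3K9Ac was 283 ± 44.1 RPM in B16 and 24.1 ± 16.1 RPM in MC38 (adjusted p = 0.00242). Mme, the cell surface peptidase neprilysin (chromosome 3), had 35.7 ± 9.94 and 587 ± 45.2 RPM. Mctp1, a calcium-binding membrane protein, had 329 ± 100.4 and 3299.9 ± 372 RPM, and Malrd1 176 ± 51.4 and 3878 ± 1033 RPM. Of these 3 genes H3K9Ac passed its test in none (adjusted p = 0.170, 0.445 and 0.560).

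Other MC38 genes of this set had no B16 island. Mef2c, a transcription factor of muscle, neurons and neural crest (chromosome 13, 83504017 to 83667079), had 244, 253 and 462 RPM of H3K9me3 in MC38 (adjusted p = 0.00188). Its H3K9Ac was 252 ± 95.6 RPM in B16 and 33.0 ± 10.1 RPM in MC38 (adjusted p = 0.000400), so the line without H3K9me3 was the more acetylated. Arhgef26, a guanine nucleotide exchange factor, had 455, 724 and 725 RPM, and Kprp, a keratinocyte protein, 75.6, 61.3 and 75.2 RPM (adjusted p = 0.00168 and 0.00187).

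All 10 genes named by smallest p for B16 had no MC38 island, and they lay on chromosomes 1, 6, 11 and 12. Myo1d, an unconventional myosin (chromosome 11), had 582, 916 and 655 RPM. Tbxas1, thromboxane synthase, had 414, 709 and 456 RPM, and Chrm2, a muscarinic acetylcholine receptor, 503, 430.3 and 365 RPM, both on chromosome 6 (adjusted p = 0.00168 for the 3 genes). Il1r1, the receptor of interleukin-1 (chromosome 1), had 266, 253 and 275 RPM, and Macc1, a regulator of the MET receptor gene described in colon cancer (chromosome 12, 119390398 to 119466934), 339.5, 264 and 310.1 RPM (adjusted p = 0.00187 for both). The spread within B16 was small beside these levels. The other members were Ppp4r4 (326 ± 18.3 RPM), Ston2 (465 ± 106 RPM) and Akr1d1 (272 ± 50.9 RPM), a bile acid enzyme gene.

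H3K9Ac did not run opposite to H3K9me3 at all of these 10 genes. Styk1, a kinase-like protein (chromosome 6), had 254, 307 and 270.4 RPM of H3K9me3 in B16, while its H3K9Ac was 14.2 ± 5.40 RPM in B16 and 116 ± 28.3 RPM in MC38 (adjusted p = 0.000510). Fhl2, a LIM domain cofactor (chromosome 1), had 348, 315 and 259 RPM of H3K9me3, and its H3K9Ac was 47.5 ± 8.17 and 134 ± 26.4 RPM (adjusted p = 0.00212). At Tbxas1 H3K9Ac was higher in the line with H3K9me3, at 173 ± 23.3 RPM in B16 and 47.6 ± 9.70 RPM in MC38 (adjusted p = 0.00398). For the other 7 genes H3K9Ac missed the threshold. At Il1r1, for example, it was 1.15 ± 1.99 and 68.5 ± 19.5 RPM (adjusted p = 0.109). All 20 genes passed under every alternative tried except with trimmed islands, where 15 passed.

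**Figure D2:**
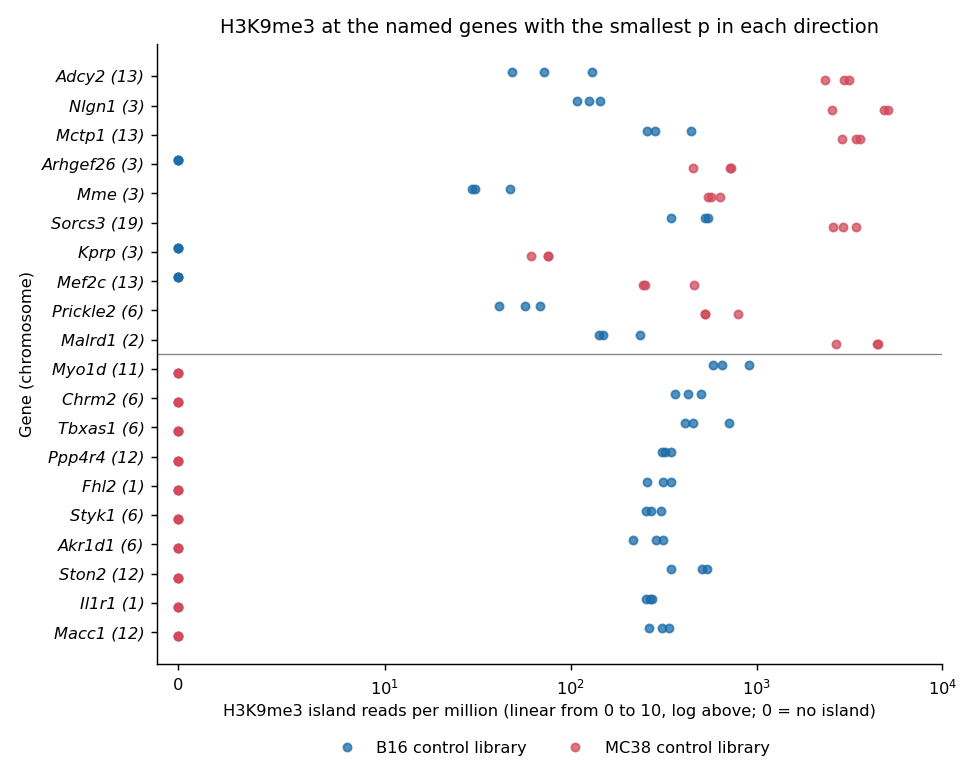
Each row is a gene with its chromosome, and the horizontal axis gives H3K9me3 island reads in RPM, linear from 0 to 10 and logarithmic above. Points are single control libraries. The 10 genes above the line were higher in MC38, and the 10 below it had no island in MC38.

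Where both lines had islands in every library, levels were compared on a log2 scale with limma. Of 4568 such genes 1127 were called (24.7%), 559 higher in MC38 (12.2%) and 568 in B16 (12.4%), with a median log2 difference of -0.03. The split depended on scaling. It was 824 and 331 with DESeq2's size factors (median 0.32) and 438 and 812 with scaling by total reads (median -0.34). The count was 530 without the second B16 library, 604 without the third B16 library and 745 without the third MC38 library.

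The smallest p-values by limma among genes higher in MC38 included that of Csmd2, a complement-domain protein of synapses (chromosome 4). It had 25.6, 15.6 and 17.3 RPM in B16 and 1857, 835 and 1689 RPM in MC38 (log2 6.14, SE 0.42, adjusted p = 0.00113). Plxdc2 (chromosome 2) had a log2 difference of 6.04 (SE 0.44) and Trpm3, a heat-gated ion channel (chromosome 19), of 5.49 (SE 0.40), both with a limma adjusted p of 0.00113. By edgeR Plxdc2 was not called (adjusted p = 0.1002). Trpm3 had more of both marks in MC38, with H3K9Ac of 24.4 ± 5.02 RPM in B16 and 119.6 ± 8.70 RPM in MC38 (edgeR adjusted p = 0.000254).

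In the other direction Ptprm, a receptor phosphatase of cell contacts (chromosome 17), had 624, 665 and 574 RPM in B16 and 48.7, 15.0 and 16.1 RPM in MC38 (log2 -4.74, SE 0.49, limma adjusted p = 0.00208). H3K9Ac at Ptprm was also higher in B16, at 533 ± 137 against 218 ± 82.4 RPM (edgeR adjusted p = 0.0320). Slc6a2, the noradrenaline transporter (chromosome 8), had 128, 185 and 237 RPM in B16 and 12.4, 12.3 and 9.32 RPM in MC38 (log2 -3.92, SE 0.34, limma adjusted p = 0.00129), but was not called by edgeR (adjusted p = 0.112).

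Of the 11 gene lists, that of neural adhesion and synapse genes had the most genes called higher in MC38. All 45 were measured and 40 had islands in all 6 libraries. By edgeR 10 were higher in MC38 and 0 in B16 (23 and 3 at an unadjusted p under 0.05, 21 and 1 by DESeq2). Over all gene regions edgeR called 2.82% higher in MC38 and 4.31% in B16. There 6386 of 25677 had an unadjusted p under 0.05 in either direction, and DESeq2 called 3507 and 3281 of 20810. Among the 10 of the list called by edgeR were Csmd2, Dscam, Gria2, Grm7, Macrod2, Nlgn1, Ptprt, Sorcs1 and Sorcs3. By limma 23 of 40 were higher in MC38 and 3 in B16, against 12.2% and 12.4% of all genes with islands in all 6 libraries. The median log2 difference was 2.25, beside -0.03 for all such genes. The median was 2.61 with size factors and 1.94 with total reads. Summed over the list, H3K9me3 was 23013 ± 9294 RPM in B16 and 74181 ± 28583 RPM in MC38. The list is of long genes. Its largest member count on 1 chromosome is 8, on chromosome 6, where B16 had the wider cover. Others, such as Nlgn1 on chromosome 3 and Sorcs3 on chromosome 19, lie where MC38 had the wider cover. The limma counts, median and sum of the list were not set beside other genes of the same chromosomes. Whether they follow chromosome copies was not tested.

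Lineage genes were divided. Of 20 melanocyte genes 11 were measured for H3K9me3. Dct, Pax3 and Ednrb had it in MC38 only, and Mitf and Trpm1 in B16 only. These are 27.3% against 4.45% of the same chromosomes, and 18.2% against 9.49%. Of the 5 edgeR called Mitf alone, and Pax3, Ednrb and Trpm1 missed the threshold (adjusted p = 0.160, 0.185 and 0.0888). Dct, a melanin synthesis enzyme (chromosome 14), had 34.5, 33.2 and 53.9 RPM in MC38 and no B16 island, with an adjusted p of 0.0846. Its H3K9Ac was 173 ± 42.8 RPM in B16 and had no island in MC38 (adjusted p = 7.28e-05). Pax3, a neural crest transcription factor, had 18.2, 0.831 and 3.96 RPM of H3K9me3 in MC38, levels that differ widely between libraries, and its H3K9Ac was 477 ± 118 RPM in B16 and 8.96 ± 2.35 RPM in MC38 (adjusted p = 3.57e-05).

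Mitf, the regulator of the pigment program (chromosome 6, 97807002 to 98021360), had 39.9, 22.1 and 77.0 RPM of H3K9me3 in B16 and none in MC38 (adjusted p = 0.00842). H3K9Ac was higher in B16 there too, at 483 ± 202 against 173 ± 53.1 RPM (adjusted p = 0.0376). The values are sums over the gene region, so both marks can lie in it at different places. Of 28 gut epithelium genes 21 were measured, of which 0 were MC38-only and 4 B16-only (19.05% against 9.68% of the same chromosomes). The summed H3K9me3 of the list went the other way, at 583 ± 93.2 RPM in B16 and 1600 ± 381 RPM in MC38, with no overlap between the libraries. Limma could test 3 of its genes and called 2 higher in MC38 and 0 in B16. By edgeR 0 of the list were higher in MC38 and 2 in B16. Its measured members were most numerous on chromosome 3 (4 genes), where MC38 had the wider cover. Car1, on that chromosome, had 39.5 RPM in B16 and 205 RPM in MC38 (means, edgeR adjusted p = 0.101). The sum was not set beside other genes of the same chromosomes. Epcam, Krt8 and Phgr1 were among the B16-only genes, and Epcam and Phgr1 missed the threshold (edgeR adjusted p = 0.140 and 0.159). Krt8, a simple epithelial keratin (chromosome 15), had 23.2, 15.2 and 18.8 RPM in B16 and none in MC38 (adjusted p = 0.0258). Krt8 had H3K9Ac of 11.96 ± 5.61 RPM in B16 and 34.4 ± 11.5 RPM in MC38 (adjusted p = 0.0313).

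Of the fibroblast and mesenchymal list, Postn (chromosome 3) had 78.5, 153 and 161 RPM in MC38 alone (adjusted p = 0.00251), and Twist2 (chromosome 1) 25.7, 83.9 and 7.88 RPM in B16 alone (adjusted p = 0.0140). Of 14 measured leukocyte genes 0 were one-line and edgeR called 0 (0 at an unadjusted p under 0.05, 1 by DESeq2). Among genes of interferon signaling and nucleic acid sensing 13 of 34 were measured. Cgas, Oas1a, Zbp1 and Zc3hav1 had H3K9me3 in B16 only (30.8% against 8.31%) and 0 in MC38 only. Zbp1, a sensor of Z-form nucleic acid (chromosome 2), had 36.6, 42.2 and 43.2 RPM in B16 (adjusted p = 0.00660), and Oas1a, an antiviral enzyme of the oligoadenylate synthetase family (chromosome 5), 17.1, 11.9 and 26.2 RPM (adjusted p = 0.0284). The other 2 missed the threshold.

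Of the MHC class I list 10 of 20 were measured, and edgeR called 0, while 2 were higher in B16 at an unadjusted p under 0.05 and by DESeq2. In 2 of the 10 H3K9me3 lay in B16 only, against 7.82% of all measured genes of the same chromosomes. Nlrc5, the activator of class I genes (chromosome 8), had 117, 149 and 112 RPM in B16 and none in MC38 (adjusted p = 0.0520), and H2-K1 12.5, 17.4 and 16.7 RPM (adjusted p = 0.109). Of 7 measured H3K9 methylation factors edgeR called 0 (0 at an unadjusted p under 0.05, 0 by DESeq2 and 1, higher in B16, by limma). Of 35 imprinted genes edgeR also called 0, but at an unadjusted p under 0.05 there were 2 higher in MC38 and 3 in B16, and DESeq2 called 4 and 2. Mest, an imprinted hydrolase gene, was B16-only. The germline list had 30 measured genes. Ddx4 and Piwil1, which act in germ cell RNA silencing, had H3K9me3 in MC38 only, with 59.2, 305 and 195 RPM (adjusted p = 0.0707) and 117, 18.4 and 52.5 RPM (adjusted p = 0.0136). Of the 11 germline genes with islands in all 6 libraries, 4 were higher in B16 by limma and 0 in MC38, with a median log2 of -1.26. No library of the 6 had an H3K9me3 island at Actb or Gapdh, genes active in every cell. Setdb1, the gene targeted in the KO cells, had 0, 5.58 and 4.21 RPM in B16 and no island in MC38 (adjusted p = 0.241).

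Families of clustered genes were set beside all genes of the same chromosomes. Cornified envelope genes, which build the outer skin barrier, had 18 of 38 members in MC38 only (47.4%, against 13.98% of all genes of chromosome 3, where all 38 lie) and 0 in B16 only. The MC38 libraries were apart from and above B16 at 35 of 38, against 13.6% of all gene regions. That share was not computed for chromosome 3 alone, where MC38 had the wider cover. By edgeR 9 of the 38 were higher in MC38, against 205 of the 1638 measured genes of chromosome 3 and 2.82% of all gene regions. Lce1a2 had 50.4, 40.01 and 48.2 RPM and Lce3e 41.5, 30.5 and 39.1 RPM in MC38, with no B16 island (adjusted p = 0.00548 and 0.00339). Neighbors in this cluster share islands and are not separate observations. With islands trimmed within each chromosome 5 of 38 were MC38-only (13.2%), against 1.95% of the same chromosome.

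UDP glucuronosyltransferases, enzymes of drug and bilirubin conjugation, had 6 of 22 in MC38 only (27.3% against 3.81%), and 2 of 22 with trimmed islands (9.09% against 2.87%). Of the 6 without trimming, 5 lay on chromosome 5, where 10 members were measured and edgeR called 0. Neighbors can share islands and are then not separate observations. By edgeR 1 of the 22 was higher in MC38, Ugt8a, a glycolipid enzyme (adjusted p = 0.0103), with uneven libraries at 15.97, 46.4 and 87.3 RPM. Ugt3a2 was higher in B16 (adjusted p = 0.0305). Type 2 vomeronasal receptors, pheromone receptors, had 26 of 210 in MC38 only (12.4% against 6.17%) and 2 in B16 only. By edgeR 23 were higher in MC38 and 3 in B16, against 2.82% and 4.31% of all gene regions. Vmn2r5 (chromosome 3) had 146, 109.5 and 149 RPM in MC38 alone (adjusted p = 0.00235), and Vmn2r56 (chromosome 7) 99.8, 87.4 and 115 RPM in B16 alone (adjusted p = 0.00188). With trimmed islands the family had 29 and 3.

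Olfactory receptors had 146 of 1208 in MC38 only (12.1% against 5.15%) and 78 in B16 only (6.46% against 9.53%). Of the first group 57 lay on chromosome 19 and of the second 27 on chromosome 11. By edgeR 42 were higher in MC38 and 37 in B16 (229 and 99 at an unadjusted p under 0.05, 394 and 102 by DESeq2). The edgeR calls lay near the 2.82% and 4.31% of all gene regions. The trimmed islands gave 56 in MC38 only (4.64% against 3.22%) and 48 in B16 only (3.97% against 8.24%). Bitter taste receptors had 6 of 36 in MC38 only (16.7% against 2.80%) and 5 in B16 only (13.9% against 18.3%), while the trimmed islands gave 16 (44.4% against 8.20%) and 4. Among them were Tas2r136 at 34.3, 5.54 and 32.0 RPM in MC38 alone and Tas2r139 at 20.7, 36.1 and 38.0 RPM in B16 alone, both on chromosome 6 (adjusted p = 0.00792 and 0.00881). Receptor families hold near-identical copies whose reads these files do not separate.

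Of the families with at least 10 measured members, Hox, Wnt and chemokine genes had the largest B16-only shares. Of 15 measured Hox genes 4 were B16-only (26.7% against 16.2% of the same chromosomes) and 0 MC38-only. Hoxc13, which acts in hair formation (chromosome 15), had 35.6, 55.9 and 28.3 RPM (adjusted p = 0.00709). Of 15 Wnt genes 4 were B16-only (26.7% against 16.5%), with Wnt7b (chromosome 15) at 61.1, 81.9 and 23.1 RPM (adjusted p = 0.00978). Wnt7b had more H3K9Ac in MC38, at 141 ± 27.4 against 87.3 ± 18.5 RPM (adjusted p = 0.0368). By edgeR 1 Hox gene and 1 Wnt gene were higher in B16 and 0 in MC38, against 4.31% and 2.82% of all gene regions. Hoxc4 and Wnt3, also B16-only, missed the threshold (edgeR adjusted p = 0.0861 and 0.0771). Keratins had 7 of 43 in B16 only (16.3%), near the 17.8% of their chromosomes, with Krt78 at 61.6, 68.6 and 59.7 RPM (adjusted p = 0.00593).

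Interleukins and their receptors had 8 of 60 in B16 only (13.3%, near the 10.8% of their chromosomes) and 0 in MC38 only. Over all gene regions edgeR called 4.31% higher in B16 and 2.82% in MC38. Here 6 were higher in B16 and 0 in MC38 (14 and 2 at an unadjusted p under 0.05, 11 and 2 by DESeq2). Besides Il1r1 these were Il1rl1, the interleukin-33 receptor (188, 92.2 and 190 RPM in B16 alone, adjusted p = 0.00251), Il3 (29.9, 28.2 and 33.6 RPM, adjusted p = 0.0101), Il10, Il15ra and Il16. Il16 had islands in both lines. Il1rl1 had H3K9Ac of 23.2 ± 13.1 RPM in MC38 and no such island in B16 (adjusted p = 0.00150). Of 17 chemokine genes 4 were B16-only (23.5% against 14.5%), all on chromosome 11, and 2 MC38-only (11.8% against 3.32%).

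**Figure D3:**
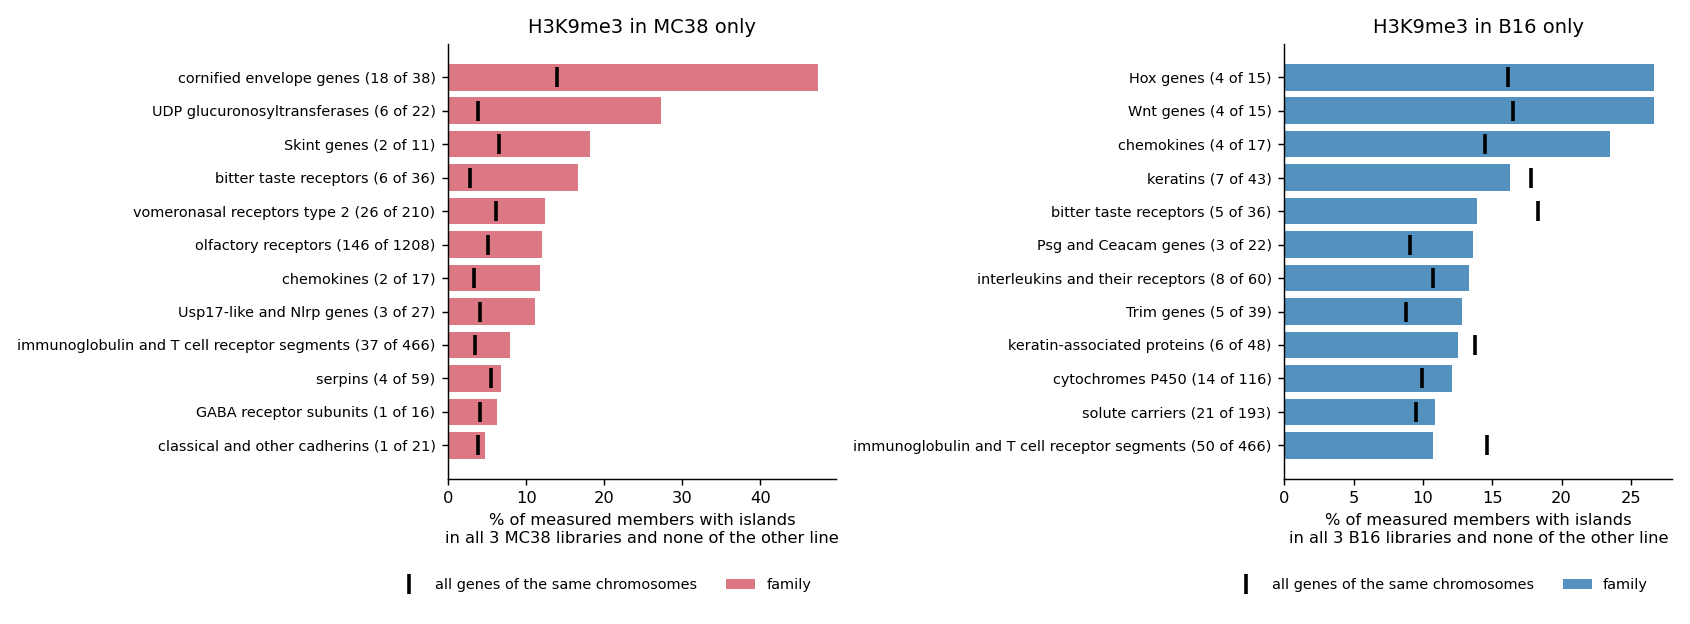
Bars give the percentage of a family's measured members with H3K9me3 in MC38 only (left) or B16 only (right), for the 12 families with the largest share, and black ticks the same share over all genes of the same chromosomes. Cornified envelope genes reach 47.4% beside 13.98%, and Hox and Wnt genes 26.7% in B16.

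H3K9Ac served as a second readout, from files that the H3K9me3 pattern did not use. Of the 1372 MC38-only genes 375 were measured for H3K9Ac. Of these 93 (24.8%) had higher H3K9Ac in B16, the line without H3K9me3, against 11.1% of all genes measured for both marks, and 30 (8.00%) in MC38, against 9.20%. The median log2 difference in H3K9Ac was -1.94. With scaling within each chromosome the shares were 24.8% against 9.55% and 6.13% against 8.22%. For the B16-only genes the shares stayed near the background: of 1940 measured, 182 (9.38%) had higher H3K9Ac in MC38 and 208 (10.7%) in B16.

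**Figure D4:**
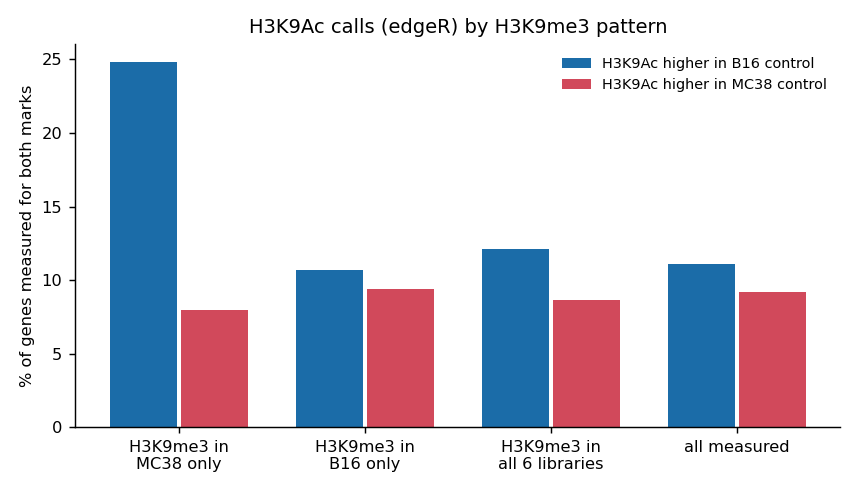
The vertical axis gives the percentage of genes with H3K9Ac called higher by edgeR in B16 or MC38 control libraries, and the groups on the horizontal axis are the H3K9me3 patterns. Genes with H3K9me3 in MC38 only reach 24.8% higher in B16, beside 11.1% for all.

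Gene starts were looked at within 1 kb on both sides. Of 624 MC38-only genes with a start given in RefSeq, 231 (37.0%) had H3K9me3 islands there in all 3 MC38 libraries. For B16-only genes it was 340 of 1567 (21.7%) in the 3 B16 libraries. Both were chosen for islands in every library of that line, so these shares are not set against those of all measured genes. The promoters also differed: the median GC content was 44.5% for MC38-only genes, 52.0% for B16-only genes and 49.7% for all. Only 5.45% of MC38-only starts were acetylated in all 6 H3K9Ac control libraries, while 34.3% of B16-only starts and 21.3% of all were. An exchange was counted where H3K9me3 islands lay within 1 kb of the start in 1 line and H3K9Ac islands in the other line alone. The 2 marks were not required to cover the same bases. An exchange was seen at 5 of the 231 MC38-only genes with covered starts (2.16%), P2ry1 and Pabpc4l among them. That share lay near the 2.03% (18 of 885) of all measured genes with starts covered in MC38. It was seen at 18 of 340 B16-only genes (5.29%), Zfp941, Gatm, Krtap1-5, Arl14, Spata9, Ankrd1 and Hmox2 among them. No share of all measured genes with starts covered in B16 was computed, so this share has no background beside it. Spata9, Ankrd1 and Hmox2 missed the threshold for H3K9me3 (edgeR adjusted p = 0.0913, 0.0985 and 0.188). Neighbors among the 18, such as Krtap1-5 and Gm32730, are not separate observations. The 4 promoters printed above are from the genes counted for an exchange, the 2 per line with an established symbol and the smallest p.

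In the Setdb1 KO libraries, which the one-line rule did not use, islands at one-line genes were more frequent in the line of origin. The shares below are not set beside those of all measured genes, and the KO libraries differed in covered length. MC38-only genes had an island in 87.4, 85.8 and 57.4% of cases in the 3 MC38 KO libraries and in 28.9, 17.6 and 17.9% in the B16 KO libraries. The lowest MC38 value was that of the third KO library, whose islands covered 215 Mb in all. B16-only genes had one in 65.8, 81.9 and 82.0% in the B16 KO libraries and in 5.41, 17.4 and 7.41% in the MC38 KO libraries. The exact pattern held in all 6 KO libraries for 396 MC38-only genes (28.9%) and 1051 B16-only genes (41.2%). For windows it held at 7833 (32.9%) and 7156 (42.2%). Mef2c, for example, had no island in the B16 KO libraries and 262 ± 74.0 RPM in the MC38 KO libraries. Kprp and Lce3e, also MC38-only, had islands in all 6 KO libraries, with B16 KO means of 28.7 and 10.6 RPM. All were named by p-values of a fit that included the KO libraries, so they are no separate check.

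**Figure D5:**
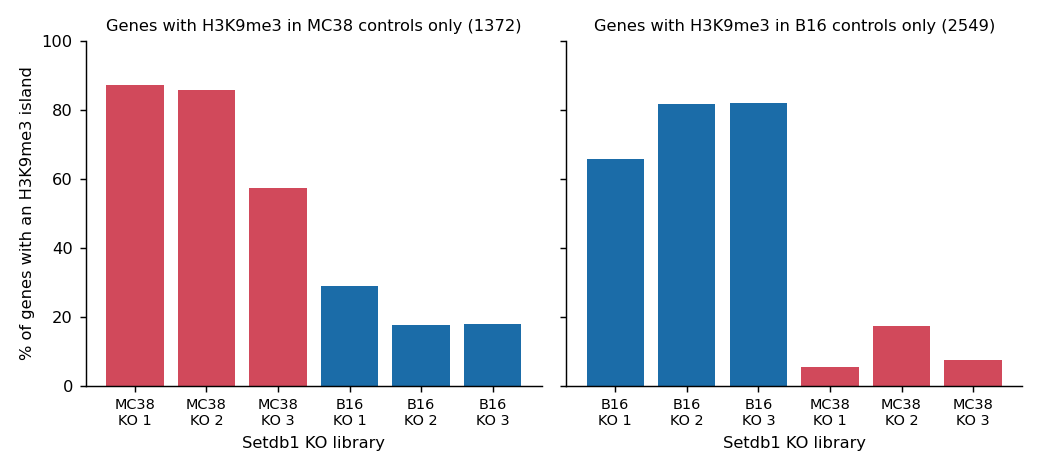
The vertical axis gives the percentage of MC38-only (left) or B16-only (right) genes with an H3K9me3 island in each Setdb1 KO library, 1 bar per library. On both sides the line's own KO libraries lie above the other line's, at 57.4 to 87.4% against 17.6 to 28.9% on the left.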

How the data were processed

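H3K9me3 and H3K9Ac were profiled by chromatin immunoprecipitation and sequencing after micrococcal nuclease digestion, per the labels' protocols. The submitters' processing notes name cutadapt (version not given), Bowtie2 2.1.0, SAMtools 0.1.8, SICER 1.1 and deepTools 3.1.1, with build mm10. The names of the deposited files give 200 bp bins, 600 bp gaps and an FDR of 0.05. Each deposited file belongs to 1 library and gives, per island, a count of that library's reads, with no scaling by the authors seen in the values. The input used as background was not given in the sources used here.

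Island reads on chromosomes 1 to 19 and X were apportioned by overlap to 49554 gene regions (RefSeq, GRCm38.p6, plus 2 kb on both sides) and to 5 kb windows, and rounded. Overlapping genes share reads. All 12 H3K9me3 libraries entered 1 edgeR 4.0.16 fit (quasi-likelihood, TMM, trended dispersion, a term per group), with regions of at least 10 mean island reads, and so did the 12 H3K9Ac libraries. The contrast was MC38 control minus B16 control, called at a Benjamini-Hochberg adjusted p under 0.05 over all regions. RPM is per 1000000 island reads counted in those regions after TMM scaling. Adjusted p-values are edgeR's unless limma is named. Genes with islands in all 6 controls were tested with limma 3.58.1 on log2 of RPM plus 0.5. No fold is given against a line without islands. DESeq2 1.42.0, R 4.3.3 and the alternatives of the closing section were added for comparison. The edgeR and limma steps were tested on simulated data.

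Named genes were protein-coding with an established symbol, an adjusted p under 0.05, a log2 difference of at least 1 in size and separated control libraries, taking 10 each way by smallest p. Added were the 4 with the smallest limma p each way, up to 3 per list, one-line melanocyte and gut genes, up to 2 members of the 6 families with the largest one-line shares in each direction, genes in the 5 longest runs, and Setdb1, Actb and Gapdh. Of these, not all are printed, and some members of the lists are not reported here. Other genes printed were chosen after their values were seen. The comparison, lists and families were chosen with earlier results of these data known. In H3K9Ac the same-numbered libraries of the lines deviated together (correlations of 0.29, 0.30 and 0.34), and a replicate block there called 8582 genes against 6472 without it. For the H3K9me3 libraries pairing was not established.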

Additional observations from a re-analysis of the deposited data

Results flagged for a closer look

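Islands outside the chromosomes compared held a small number of reads in every control library, and nothing else in the report uses them. On chromosome Y there were 2319, 1184 and 1268 island reads in the 3 B16 libraries and 3124, 2857 and 2036 in the 3 MC38 libraries. On the mitochondrial chromosome there were 614 and 652 island reads in the first and second B16 libraries, and 0 in the third B16 library and in all 3 MC38 libraries. They were looked at because they are signal in data outside the comparison, above the limit of 3 counts that a count of 0 allows. Y and mitochondrial sequences were left out of every gene, window and chromosome value.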

How the results depend on the processing

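The count of called genes (1832) was 6788 with DESeq2, 3655 in an edgeR fit of the 6 control libraries alone, 3522 in that fit with scaling within each chromosome (chosen after the data were seen), 1179 with islands trimmed to 1 common length, and 1187 to 2497 with 1 library left out, the lowest without the second B16 control library. The fit of 6 held 1735 (94.7%) of the 1832 genes, DESeq2 1793 (97.9%) and the trimmed islands 743 (40.6%). With a replicate block edgeR called 401 genes (238 higher in MC38 and 163 in B16), 397 of them among the 1832. Windows (18996) with the block numbered 647. Same-numbered H3K9me3 libraries correlated at 0.33, 0.29 and 0.02, and the third pair was under the 0.1 set for pairing, so pairing was not established (the crossed pairs of the first 2 numbers correlated at -0.34 and -0.25). The third B16 library correlated best with the second of MC38. Windows numbered 81638 with DESeq2, 37475 and 37154 in the fits of 6 without and with chromosome scaling, 12638 with trimmed islands, 12285 at 10 kb and 13283 to 25956 with 1 library left out, when 49.4% to 69.3% were higher in MC38. Genes called by limma (1127) ranged from 530 to 1431 with 1 library left out. One-line genes (3921) ranged from 4442 to 5820, and one-line windows (40739) from 46115 to 63390, the highest without the second MC38 library. The one-line rule can only gain members when a library is left out, so these ranges do not show stability. One-line windows numbered 19703 at a least cover of 2500 bp and 24725 with trimming within each chromosome. H3K9Ac calls (6472) numbered 10764 with DESeq2 and 5128 to 6672 with 1 library left out. The covered length differed by 68.2 Mb (32.4 to 86.2 with 1 library left out) and reads per kb by -6.20 (-11.98 to -0.40). No named gene changed direction. Of the 60 named genes called, 33 passed with the block and 39 with trimmed islands. Regions without an island hold an unknown number of reads, so depth limits what a 0 shows.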

Other observations

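Dynein heavy chains, the motor proteins of cilia and of axonal transport, were among the long gene families with H3K9me3 in both lines, and here B16 was ahead. Of 14 measured members 12 had islands in all 6 control libraries. By limma 7 of the 12 were higher in B16 and 0 in MC38, against 12.4% and 12.2% of all such genes. The median log2 difference was -1.44, beside -0.03 for all such genes. With DESeq2's size factors 4 were higher in B16 (median -1.08), and with total reads 8 (median -1.75). Summed over the family the level was 8156 ± 152 RPM in B16 and 2802 ± 545 RPM in MC38, with no overlap between the libraries. Dnah7a, an axonemal member on chromosome 1, was called by edgeR (adjusted p = 0.0143).

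Cytochromes P450, enzymes of drug and steroid oxidation, had 14 of 116 measured members in B16 only (12.1% against 9.95% of the same chromosomes) and 5 in MC38 only. By edgeR 8 were higher in B16 and 3 in MC38, against 4.31% and 2.82% of all gene regions. Of the B16-only members 8 were Cyp2d genes and pseudogenes on chromosome 15, which lie side by side and share islands. With islands trimmed within each chromosome 21 were B16-only (18.1%, against 8.47% of the same chromosomes) and 3 MC38-only. Zinc finger genes, a family that includes silencers of transposable elements, had 24 of 276 in B16 only (8.70% against 8.80%) and 4 in MC38 only, and the trimmed islands left 22 (7.97% against 8.11% of the same chromosomes) and 1. Of 137 with islands in all 6 libraries, limma called 18 higher in MC38 and 8 in B16, against 12.2% and 12.4% of all such genes. With scaling by total reads it called 7 and 16, so the direction turned. All 4568 such genes moved the same way, from 559 and 568 to 438 and 812, so the turn was not particular to this family.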
